A study of Mus musculus with 8 samples.

Results

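The 5 genes described here encode the GABA-B receptor and its auxiliary subunits: *Gabbr1*, *Gabbr2*, *Kctd8*, *Kctd12* and *Kctd16*. They were taken by name from 38031 mouse genes with a count, and all 5 were among the 9959 genes with enough counts to be tested. They were put together with the results of these libraries in view, and *Kctd16* was included for its increase, so their fold changes are given as a description without p values.

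RNA was sequenced from the primary motor cortex (M1) of male Swiss Webster mice, 4 injected with a lentivirus carrying a *Fezf2 shRNA* and 4 with a *non-silencing shRNA* (the controls). Mice of both groups were injected at P21 to P25 and tissue was taken at P49 to P53. Both vectors also carried mCherry and used the Synapsin I promoter, which restricts expression to neurons, while the RNA came from whole mCherry-positive tissue of all layers with the meninges. Each library therefore mixed transduced neurons with untransduced neurons and other cells. Each of the 8 libraries was treated as 1 animal. *Fezf2* itself, a transcription factor of deep-layer projection neurons, had normalized counts of 688, 767, 735 and 702 in the controls and of 621, 583, 568 and 592 in the *Fezf2 shRNA* libraries. The groups did not overlap, with a log2 fold change of −0.29 ± 0.076 (SE, n = 4 and 4), and the adjusted p of the edgeR quasi-likelihood test was 0.0765.

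GABA-B receptors are the metabotropic receptors for the inhibitory transmitter GABA. The receptor is a dimer in which the GABBR1 subunit binds GABA, and the GABBR2 subunit activates the G protein and brings the dimer to the cell surface. Through Gi/o proteins it closes presynaptic calcium channels, opens GIRK potassium channels on dendrites and inhibits adenylyl cyclases. KCTD8, KCTD12 and KCTD16 are cytosolic proteins that bind the tail of GABBR2. KCTD12 makes the response desensitize quickly, while KCTD8 and KCTD16 do not.

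The sense strand of the *Fezf2 shRNA* is shown because it allows a check of each gene against the silencing sequence. It is written 5′ to 3′, with the longest run that any annotated transcript of the gene shares with it in capitals.
Fezf2: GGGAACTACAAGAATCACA
Gabbr1: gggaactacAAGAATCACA
Gabbr2: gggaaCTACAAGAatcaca
Kctd8: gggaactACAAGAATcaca
Kctd12: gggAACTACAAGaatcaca
All 19 bases lay in *Fezf2*. The longest shared run was 10 bases in *Gabbr1*, 9 in *Kctd12*, 8 in *Gabbr2* and *Kctd8*, and 7 in *Kctd16*. Such a run is a match of letters and was not tested as a target site.

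*Gabbr1* is transcribed from more than 1 start, and the first 30 coding bases of its annotated forms are shown because they tell the forms apart (start codon in capitals, plus strand of chromosome 17, GRCm38).
Long form: ATGctgctgctgctgctggtgcctctcttc
Internal-start form: ATGggcccggggggaccctgtaccccggtg
The start codon of the long form (ENSMUST00000025338) lies at position 37046695 and that of the internal-start form (ENSMUST00000172792) at 37050854, after the first 5 exons of the long form. The last 2395 coding bases are the same in both forms. Before them, the long form has 488 coding bases of its own, in the region that encodes the sushi domains, and the internal-start form has 140.

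*Kctd16* was higher in the *Fezf2 shRNA* libraries, while the other 4 genes overlapped between the groups. Over all 9959 tested genes, the groups did not overlap in 11.8%. A normalized count is a count divided by the library's effective size and multiplied by the mean effective size of the 8 libraries. For *Kctd16* it was 8148, 9847, 10214 and 9068 in the controls and 15785, 17203, 17786 and 14269 with the *Fezf2 shRNA*. Every *Fezf2 shRNA* library lay above every control. The means were 9319 ± 915 and 16261 ± 1572 (SD, n = 4 and 4), a log2 fold change of 0.80 ± 0.090 (SE) or 1.74-fold, which ranked 22nd among the 9959 tested genes. *Kctd16* was also the 1 gene of the 5 past the threshold (adjusted p of at most 0.05 and absolute log2 fold change of at least 0.2), which 2.19% of the tested genes passed. The gene was chosen on this contrast, so nothing is read from that count. At the edge of the threshold, *Spag16* lay just inside with a log2 fold change of 0.39 and *Otud7a* just outside with 0.45. *Kctd16* did not pass when control replicate 1 was left out (0.74), as was the case for every other gene.

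*Gabbr1* had normalized counts of 21067, 22059, 19717 and 20919 in the controls and of 20533, 22571, 19536 and 18763 with the *Fezf2 shRNA*. The highest and the lowest of the 8 values were both *Fezf2 shRNA* libraries. The log2 fold change was −0.04 ± 0.070 (SE). An approximate 95% interval, taken from the SE by the normal distribution and so somewhat narrow, ran from −0.18 to 0.10.

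*Gabbr2* had 20164, 25097, 18238 and 19576 in the controls and 23623, 23728, 23561 and 22690 with the *Fezf2 shRNA*. The *Fezf2 shRNA* libraries lay close together, above 3 controls and below control replicate 2. The log2 fold change was 0.17 ± 0.091 (SE). Without control replicate 2, where 401 of all tested genes passed against 218 with all libraries, it was 0.28 and past the threshold. It was −0.07 with the length adjustment, which takes the trend of counts with interval length out of each library.

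*Kctd8* had 1132, 1075, 1056 and 990 in the controls and 1431, 967, 1038 and 1457 with the *Fezf2 shRNA*. *Fezf2 shRNA* replicates 1 and 4 lay above all controls, replicate 2 lay below them and replicate 3 among them. The SD was 257 with the *Fezf2 shRNA* against 58.5 in the controls, and the log2 fold change was 0.20 ± 0.131 (SE). The length adjustment left it at −0.00.

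*Kctd12* had 1064, 1121, 806 and 1034 in the controls and 1019, 1157, 948 and 1089 with the *Fezf2 shRNA*. Control replicate 3 was the lowest of the 8, and the other 7 values were intermingled. The log2 fold change was 0.07 ± 0.107 (SE) and −0.02 without that control. *Kctd12b*, a close relative of *Kctd12* that can also join the receptor, had too few counts to be tested, with 69.2 to 114 in the controls and 75.6 to 107 with the *Fezf2 shRNA*.

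**Figure D1:**
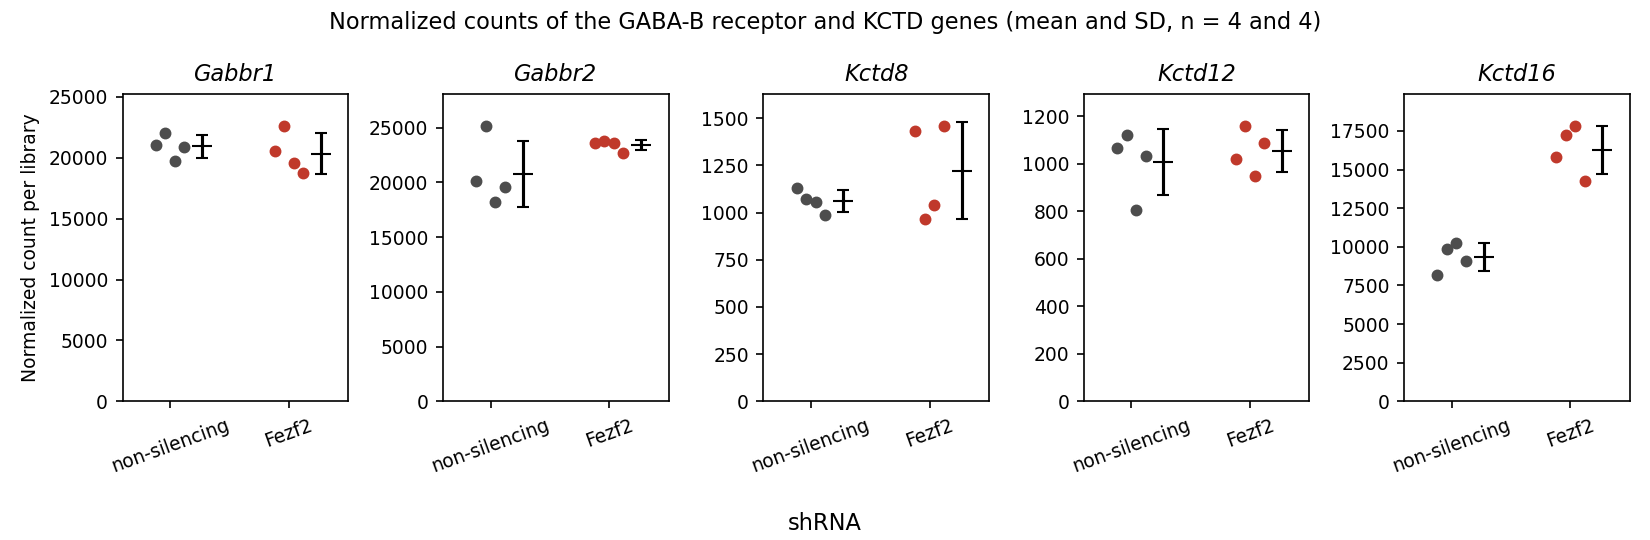
Normalized count (vertical axis, from 0) of each gene in each library for the non-silencing shRNA (grey) and Fezf2 shRNA (red), with the mean and SD of each group beside the points (n = 4 and 4). The groups are apart for Kctd16 alone among these 5 genes, with controls from 8148 to 10214 and Fezf2 shRNA libraries from 14269 to 17786. Over all tested genes, the groups are apart in 11.8%.

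Ratios between the genes were taken within each library to compare the groups, and since they use counts that are not per length, they do not compare levels of the genes. The ratio of *Kctd16* to *Gabbr2* normalized counts was 0.455 ± 0.077 in the controls and 0.694 ± 0.057 with the *Fezf2 shRNA* (SD, n = 4 and 4), and the groups did not overlap. The ratio of *Kctd16* to *Kctd8* went from 8.80 ± 1.09 to 13.9 ± 4.11, and the highest control (9.67) lay just under the lowest *Fezf2 shRNA* library (9.80). The ratio of *Kctd16* to *Kctd12*, which differ in how they shape the response, went from 9.47 ± 2.20 to 15.6 ± 2.36 without overlap. These ratios rest on the same *Kctd16* counts and are no further evidence of its increase. The ratio of *Gabbr2* to *Gabbr1* was 0.989 ± 0.100 in the controls and 1.15 ± 0.074 with the *Fezf2 shRNA*, and the groups overlapped.

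How the counting tool was set is not given in the sources used here, but the counts behave as counts over whole transcript intervals, introns included. Among 96 pairs of annotated transcripts with the same ends and exon lengths at least 1.5 times apart, 95 had equal counts in all 8 libraries. A level is therefore comparable between genes only per length. In the controls *Gabbr1* had 719.6 ± 33.0 reads per kb of interval, followed by *Kctd12* (250.6 ± 34.5), *Gabbr2* (63.0 ± 9.09), *Kctd16* (34.2 ± 3.36) and *Kctd8* (4.58 ± 0.25; SD, n = 4). The ranges over libraries of neighbours in this order did not overlap. The order was the same with the *Fezf2 shRNA*, where the step from *Gabbr2* (71.0 ± 1.45) to *Kctd16* (59.6 ± 5.76) had narrowed from 1.84-fold to 1.19-fold. The order cannot be read as an order of mature mRNA, because the intervals hold very different shares of exon. On GRCm38, the *Kctd12* interval (chromosome 14, 102977537 to 102981551) spans 4.01 kb and is exonic throughout. The *Gabbr1* interval (chromosome 17, 37045966 to 37075067) spans 29.1 kb with 23 exons and is 26.7% exonic. The *Kctd8* interval (chromosome 5, 69109285 to 69341679) spans 232.4 kb, the *Kctd16* interval (chromosome 18, 40258361 to 40531168) 272.8 kb and the *Gabbr2* interval (chromosome 4, 46662305 to 46991873) 329.6 kb. These 3 are 1.45%, 0.72% and 2.03% exonic.

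The 3 genes with the longest intervals had the 3 highest log2 fold changes of the 5, so they were set beside genes of like length. Among the 433 tested genes with intervals of 200 to 350 kb, a range chosen with the values known, the median log2 fold change was 0.22, against −0.05 for the 2093 genes of 20 to 40 kb and −0.12 for the 2153 genes under 10 kb. *Gabbr2* (0.17) and *Kctd8* (0.20) lay just under the median of their length class. *Kctd16* lay above its 95th percentile of 0.47, and 5 of the 433 genes, itself included, had a log2 fold change at least as high. *Kctd16* was chosen for this increase, so its high place in the class is no separate evidence. Of the 433 genes, 51 (11.8%) were past the threshold and increased, against 2.06% of all tested genes. With the length trend taken out of each library, the log2 fold changes were −0.01 for *Gabbr1*, −0.07 for *Gabbr2*, −0.00 for *Kctd8*, 0.18 for *Kctd12* and 0.59 for *Kctd16*. *Kctd16* was then no longer past the threshold, which 2 genes passed, and ranked 36th. Counts over such intervals do not tell spliced from unspliced RNA.

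**Figure D2:**
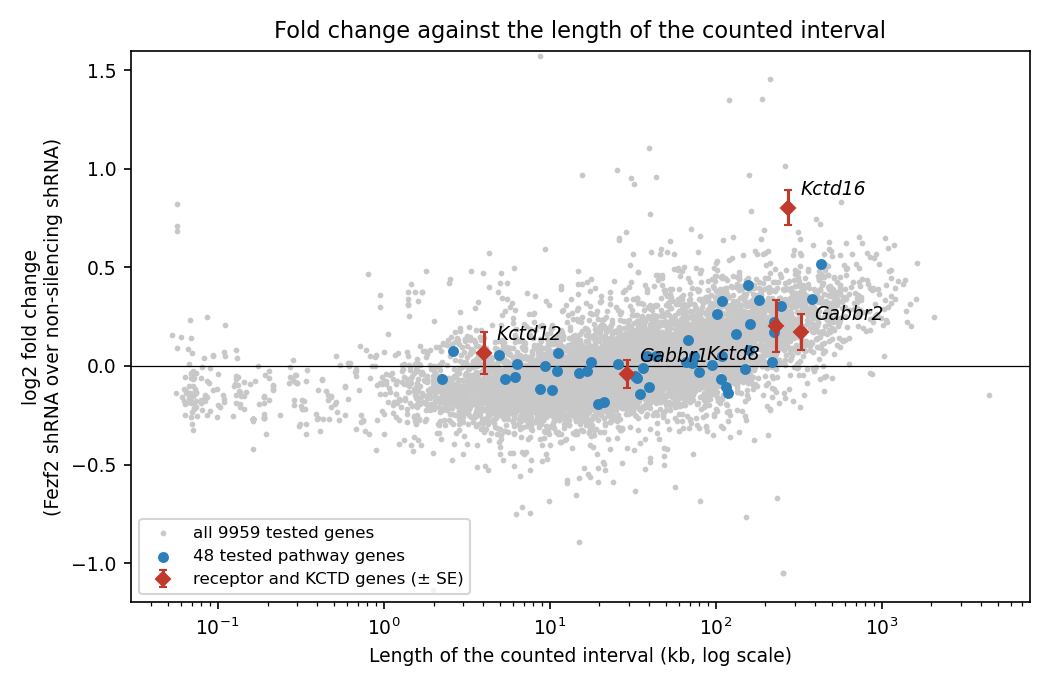
Log2 fold change (vertical axis) against the length of the counted interval (horizontal axis, log scale) for 9959 tested genes (grey; 9 genes lie outside the plotted range), 48 pathway genes (blue) and the 5 receptor and KCTD genes (red, ± SE). Values rise with length, and Gabbr2 (0.17) and Kctd8 (0.20) lie within the cloud at their lengths. Kctd16 (0.80), chosen for its increase, lies above most of the cloud. With a length adjustment Gabbr2 is at −0.07 and Kctd8 at −0.00.

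Annotated transcripts nested in or beside these intervals have counts of their own and show where in a gene the reads lie. The upstream transcript of *Kctd16* (ENSMUST00000096572) is a single exon of 723 bases, of which 625 form the whole first exon of a longer *Kctd16* transcript. It ends 676 bases before the counted interval (ENSMUST00000091927) begins. Its normalized counts were 418, 345, 441 and 430 in the controls and 503, 428, 415 and 463 with the *Fezf2 shRNA*. The groups overlapped, and the log2 ratio of the means was 0.15, against 0.80 for the 272.8 kb interval that is almost all intron. Set against the count of the long interval, the count of the upstream exon was 4.42% ± 0.70 in the controls and 2.81% ± 0.47 with the *Fezf2 shRNA* (SD, n = 4 and 4). The lowest control (3.50%) lay above the highest *Fezf2 shRNA* library (3.24%). The percentage is divided by the *Kctd16* count on which the gene was chosen, so it is no separate evidence. The antisense gene *AC098707.1* overlaps the upstream exon and was not itself in the count table, so reads of both strands may be mixed there.

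For *Gabbr1*, the internal-start form had 17918 ± 1034 normalized counts in the controls and 17684 ± 1483 with the *Fezf2 shRNA*, a log2 ratio of −0.02. Its interval includes the exons shared with the longer form. The 5′ transcript (ENSMUST00000174456), whose interval ends before the internal start and is 51.9% exonic, had 2913, 2724, 3045 and 2661 in the controls and 2722, 2681, 2307 and 2335 with the *Fezf2 shRNA*. *Fezf2 shRNA* replicates 3 and 4 were the lowest of the 8, and replicates 1 and 2 lay among the controls. The log2 ratio was −0.18, and its count relative to that of the long form was 13.6% ± 1.39 and 12.3% ± 0.67 with overlap.

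The short transcript of *Gabbr2*, 7.88% exonic, had a log2 ratio of 0.08, and the rest of the *Gabbr2* interval, 1.57% exonic, had 0.18. The short transcript of *Kctd8* had 0.11 and the rest of the *Kctd8* interval 0.24. The protein-coding transcript of *Kctd12* (ENSMUST00000184744) had 0.03, where the counted transcript (ENSMUST00000183756) is annotated as non-coding and had 0.07. All of these parts overlapped between the groups, and parts of the same gene share reads with its interval.

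**Figure D3:**
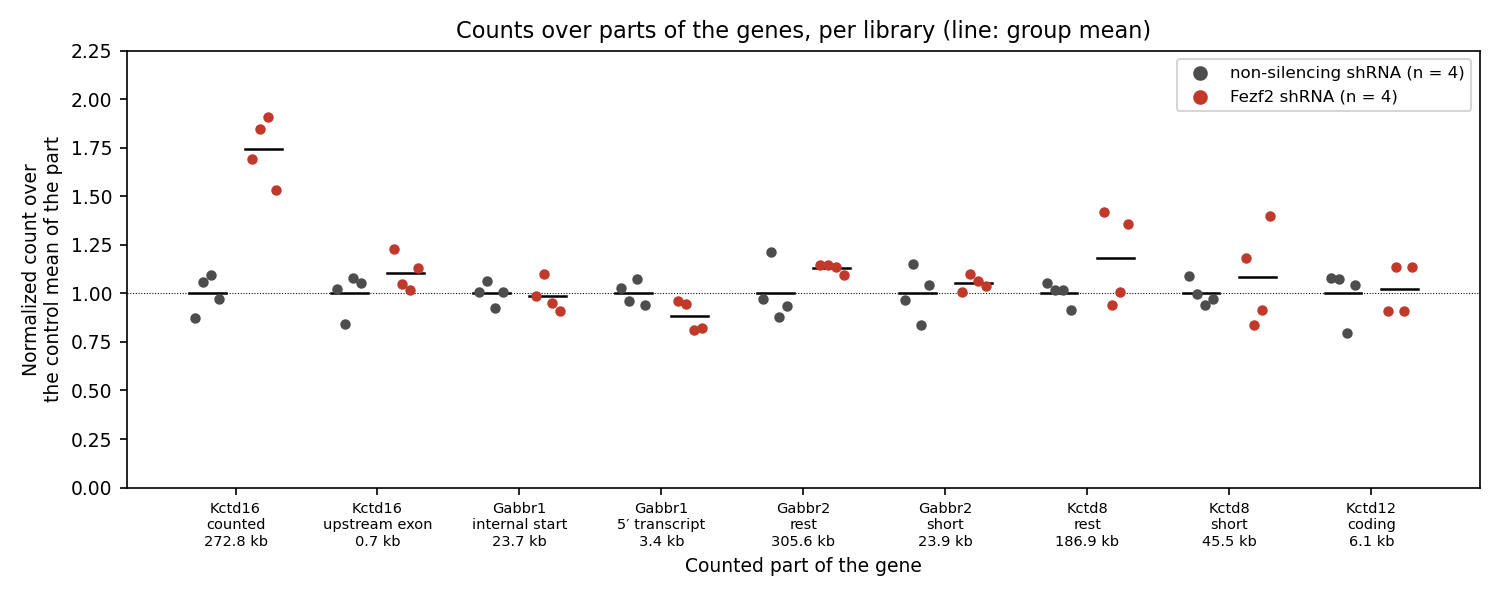
Normalized count of each part of a gene divided by its control mean (vertical axis, from 0) in each library for the non-silencing shRNA (grey) and Fezf2 shRNA (red), with lines at the group means (n = 4 and 4); rest is the counted interval outside the short transcript. The counted Kctd16 interval stands at 1.74 times its control mean with the Fezf2 shRNA, while its upstream exon overlaps between the groups.

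Some of these counts hold reads of other genes. The non-coding gene *Gm26778* lies opposite *Kctd12* (102978220 to 102982528) with a mean of 1136 counts per library, and whether counting used the strand is not given in the sources used here. The *Kctd12* values are uncertain for that reason. The *Kctd8* interval holds 7 experimentally untested transcripts of its own strand, and the *Kctd16* interval holds the experimentally untested *AC164106.1* and the antisense *AC132357.1*.

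Genes whose centred log2 CPM profile over the 8 libraries was nearest to that of each gene are named next, with the root mean square difference as the measure of likeness. Nearest to *Kctd16* were *Angpt2*, *Pcdh15* and *Grm7* at 0.13, 0.15 and 0.16, where the median gene was at 0.45. The profiles include the difference between the groups, on which *Kctd16* was chosen, so nearness to it favours other increased genes. These 3 genes had log2 fold changes of 0.58, 0.57 and 0.57. The intervals of *Pcdh15* and *Grm7* span 813 and 920 kb. The median gene was at 0.15 for *Gabbr1*, 0.20 for *Gabbr2* and *Kctd12*, and 0.25 for *Kctd8*. Distances are therefore not compared between the members. *Angpt2*, which lies inside the gene *Mcph1* on the opposite strand and may share its reads, encodes a vessel growth factor, *Pcdh15* a protocadherin and *Grm7* a metabotropic glutamate receptor that also signals through Gi/o. *Dgkz* and *Rundc3a* were nearest to *Gabbr1* at 0.025 and 0.030, *Srcap*, *Gnal* and *Ids* to *Gabbr2* at 0.045 to 0.050, and *Gm26691*, *Cwc27* and *Alas2* to *Kctd8* at 0.074 to 0.092. *Gm26778*, which overlaps *Kctd12*, was its nearest neighbour at 0.055, followed by *Usp42* (0.066) and *Shisa7* (0.071).

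The genes around the receptor were read from 9 lists by role, 57 genes in all, of which 48 were tested. By the edgeR quasi-likelihood test with Benjamini-Hochberg adjustment 3 increased, none decreased, and 45 did not pass. At an unadjusted p under 0.05, 9 were higher and 3 lower with the *Fezf2 shRNA*, and DESeq2 without a prior called 5 increased and 0 decreased. Over all 9959 tested genes, 218 (2.19%) passed by edgeR, and DESeq2 without a prior called 752 (658 increased, 94 decreased). In edgeR with the size factors of DESeq2, 1917 of all genes had an unadjusted p under 0.05. The list counts at that p come from the fit scaled by TMM instead, and the 1917 are not split by direction. The lists were not tested against these shares. The median log2 fold change of the 48 genes was 0.01, against −0.03 over all tested genes. The 18 genes with intervals over 100 kb had a median of 0.19 and the others −0.02. All 3 increased genes have intervals over 100 kb, and none passed with the length adjustment. In 5 of the 48 genes the groups did not overlap, where 11.8% of all tested genes did not. Among them were the 3 increased genes and *Ajap1* (0.33 ± 0.078, edgeR adjusted p = 0.0573), which encodes a protein that binds the sushi domains.

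Among the regulators of G protein signalling, *Rgs7* increased. Its protein, bound to the G beta protein encoded by *Gnb5*, ends the signal from GABA-B receptors to GIRK channels. *Rgs7* had 7816, 7994, 8650 and 7619 normalized counts in the controls and 11835, 10918, 12173 and 10969 with the *Fezf2 shRNA*. Every *Fezf2 shRNA* library lay above every control, with a log2 fold change of 0.52 ± 0.064 (SE) and an edgeR adjusted p of 0.0123. With the length adjustment it was 0.24. *Rgs4*, another such regulator, was at −0.06 ± 0.091 and the anchor *Rgs7bp* at 0.05 ± 0.092. These turned to 0.05 and −0.05 with the length adjustment.

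Of 6 adenylyl cyclases, which make cyclic AMP, *Adcy2* increased from 10839 ± 841 to 13717 ± 532 normalized counts (SD, n = 4 and 4). Its log2 fold change was 0.34 ± 0.067 (SE; edgeR adjusted p = 0.0315), and 0.08 with the length adjustment. *Adcy1*, the most abundant of them, was at −0.11 ± 0.075.

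Of 10 tested members of the wider KCTD family, *Kctd1* increased, from 3689 ± 234 to 4656 ± 354 normalized counts. Its log2 fold change was 0.34 ± 0.072 (SE; edgeR adjusted p = 0.0412), and 0.17 with the length adjustment. The call was lost under 13 of 19 alternatives, among them library totals, both other filters and the replicate block (edgeR adjusted p = 0.0625). *Kctd1* is known as a repressor of transcription and not as a part of the receptor. *Kctd3*, with the next highest counts of the family, was at −0.01 ± 0.069. Without control replicate 1 none of the 3 increased genes passed, and 1 passed without control replicate 3 or 4 or without *Fezf2 shRNA* replicate 1, 3 or 4. *Adcy2* was also lost with both other filters, at an edgeR adjusted p of 0.0560 and 0.0618.

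None of the 5 tested channel genes through which the receptor acts passed the threshold in the edgeR fit of all libraries without a block. Of these, 4 were higher at an unadjusted p under 0.05, and DESeq2 called *Cacna1b* alone. The remaining channel gene, the GIRK gene *Kcnj9*, was at −0.12 ± 0.077 (log2 fold change ± SE), and its interval spans 8.8 kb. Of all 9959 tested genes, 1917 had an unadjusted p under 0.05 in edgeR with the size factors of DESeq2, and DESeq2 called 752. The 1917 come from another scaling than the count of 4 and are not split by direction. The GIRK genes *Kcnj3* and *Kcnj6* were at 0.21 ± 0.076 and 0.31 ± 0.120 (log2 fold change ± SE). The presynaptic calcium channel genes *Cacna1a* and *Cacna1b* were at 0.22 ± 0.098 and 0.41 ± 0.102, with an edgeR adjusted p of 0.0621 for *Cacna1b*. With the replicate block, where 89 of all tested genes passed, *Cacna1b* passed (0.41, edgeR adjusted p = 0.0473). Without control replicate 2, where 401 passed against 218 with all libraries, *Kcnj6* passed (0.44, edgeR adjusted p = 0.0301). All 4 have intervals over 100 kb, and with the length adjustment they were at 0.06, 0.10, 0.03 and 0.26.

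None of the 12 tested G protein genes passed the threshold in the fit of all libraries. At an unadjusted p under 0.05, *Gng2* was higher (0.27 ± 0.112) and *Gnai2* lower (−0.18 ± 0.081), with edgeR adjusted p of 0.228 and 0.244. *Gnao1*, which encodes the main Go alpha subunit of brain, was at 0.08 ± 0.073 (−0.07 with the length adjustment), *Gnai1* at 0.01 ± 0.068 (−0.08), *Gnb1* at 0.13 ± 0.074 and *Gnb2* at −0.07 ± 0.075 (0.04). Of the proteins that bind or traffic the receptor, *App* was at 0.02 ± 0.062 (−0.17) and *Jakmip1* at 0.05 ± 0.074 (−0.01). Of the genes that make, store and take up GABA, none of 6 passed by edgeR or DESeq2, and 1 had an unadjusted p under 0.05. The degrading enzyme *Abat* was at −0.07 ± 0.059.

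**Figure D4:**
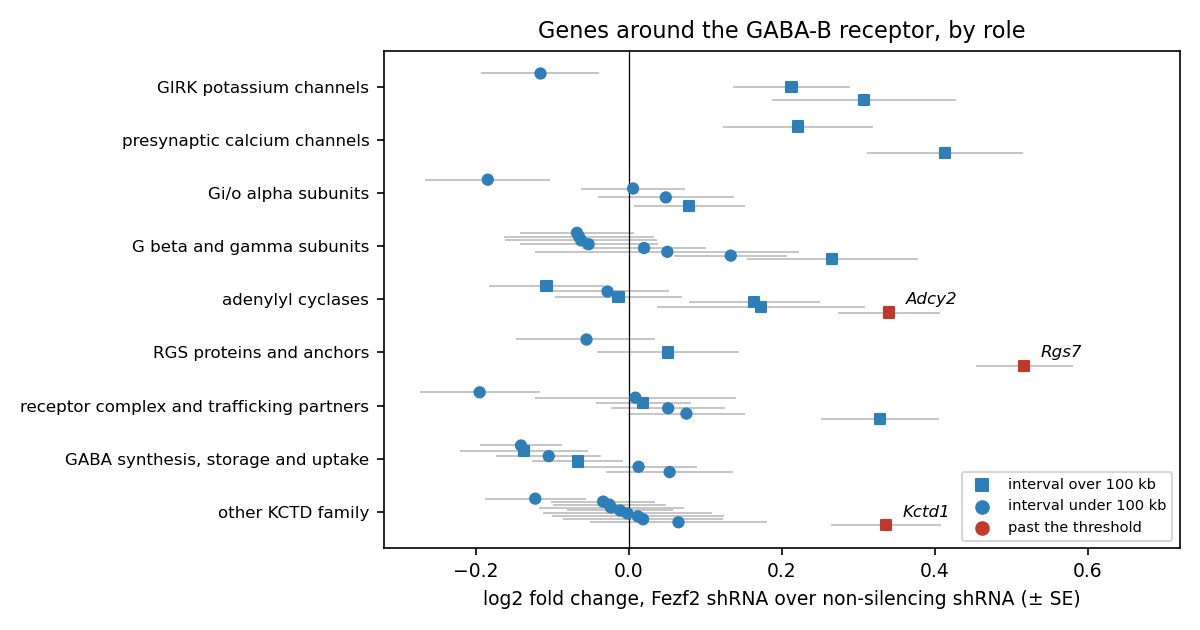
Log2 fold change (horizontal axis, ± SE) of the 48 tested genes in 9 lists (vertical axis), with squares for intervals over 100 kb, circles for shorter ones and red for genes past the threshold. Adcy2 (0.34), Rgs7 (0.52) and Kctd1 (0.34) passed, and with a length adjustment they were at 0.08, 0.24 and 0.17.

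Over the whole series, 218 genes passed the threshold, 205 increased and 13 decreased, and the libraries held 54684016 to 58003814 counts. In 7 lists of cell type markers, 23 tested genes in all, none passed by edgeR. Of 5 listed markers each, 0 of the meninges, 1 of endothelial cells and 2 of striatal neurons were tested, so these lists were hardly examined. At an unadjusted p under 0.05, 2 of the 23 were higher, both neuronal, and 4 lower, all of oligodendrocytes. DESeq2 called the neuronal *Rbfox3* higher and *Mog* and *Cnp*, both of oligodendrocytes, lower. Of the 5 neuronal markers, 3 had log2 fold changes below 0 and 2 above (−0.10 to 0.28). Of all 9959 tested genes, 1917 had an unadjusted p under 0.05 in edgeR with the size factors of DESeq2, and DESeq2 called 752. The 1917 come from another scaling than the marker counts and are not split by direction. Neuronal markers, summed per library, were 185098 to 206824 in the controls and 192032 to 201399 with the *Fezf2 shRNA*. All 5 oligodendrocyte markers had log2 fold changes below 0 (−0.58 to −0.31), with sums of 59724 to 108390 and of 44718 to 73225, which overlap. No marker of the lists was at 0 in all libraries. The part of cell mixture in the *Kctd16* difference was not tested, and in whole tissue fewer cells of a type and less RNA per cell cannot be told apart.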

How the data were processed

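Total RNA from 8 M1 samples (4 *Fezf2 shRNA*, 4 *non-silencing shRNA*) was sequenced in pairs. Per the submitters' notes and the study's methods, reads were trimmed with fastq-mcf and aligned to mm10 with TopHat2 2.1.1. Reads were counted on Ensembl transcripts with BEDTools 2.26.0 multiCov, with settings not given in the sources used here. The counts deposited by the authors are raw, whole-number counts per transcript. A deposited table of the authors' own DESeq2 1.10.1 comparison (base means, fold changes, standard errors, p values) was not used.

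Of 94647 transcripts, 91320 were matched to GENCODE M21 (GRCm38), and the 3327 others, with 1.82% of counts, were left out. The transcript with the lowest Ensembl number stood for each gene. Genes above 8 CPM in 4 or more libraries entered a single edgeR 4.0.16 fit of all 8 libraries without covariates (R 4.3.3), scaled by TMM and tested by quasi-likelihood, with p values adjusted after Benjamini and Hochberg. The fits were run on simulated counts of a single dispersion, without a length trend or library-specific effects. That run cannot show how the fits deal with such features. The common biological coefficient of variation was 11.7%, which together with 4 libraries a group set the precision. The length adjustment took a loess curve (span 0.3) of each library's log2 counts on log10 interval length as an offset. Figures were drawn with Python 3.11.15 and matplotlib 3.10.9.

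Members and lists were chosen with earlier results of these data known. Genes named are the members, every list gene past the threshold, the 2 of highest mean count in each list, the 3 nearest profiles per member, and *Fezf2*. Some genes that this rule names are not reported here. *Kctd12b*, *Kcnj9*, *Gnb5*, *Gng2*, *Gnai2*, *Ajap1*, *Mcph1*, *Rbfox3*, *Mog*, *Cnp*, *Spag16* and *Otud7a*, and the genes overlapping a member, were named after their values were seen. The labels do not say that replicates came from separate litters or batches, and p values measure the spread between these samples. Alternatives were other scalings, filters, tools, transcripts, a length adjustment, a replicate block and leaving out each library.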

Additional observations from a re-analysis of the deposited data

Results flagged for a closer look

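In 50 groups of 4 libraries (25 genes, each in both treatments), 1 library stood apart from the other 3 by Dixon's criterion in 2 groups, where chance gives about 1 in 20. *Gabbr2* in *Fezf2 shRNA* replicate 4 had 22690 normalized counts against 23561 to 23728 in the other *Fezf2 shRNA* libraries. *Kctd3* in *non-silencing shRNA* replicate 3 had 3084 normalized counts against 2675 to 2733 in the other controls.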

How the results depend on the processing

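The log2 fold changes of *Gabbr1*, *Kctd8* and *Kctd12* moved by less than the replicate SD under all 19 alternatives. For *Kctd8* that SD (0.22) is larger than the fold change itself (0.20). The *Kctd8* value went to −0.00098 and −0.020 with the length adjustment, without and with the replicate block. *Kctd12* went from 0.066 to −0.018 without control replicate 3. *Kctd16* was past the threshold under 16 of 19 (0.74 to 0.86 with a library left out) and not with the length adjustment (0.59), that adjustment with the replicate block (0.58) or without control replicate 1; *Gabbr2* went to −0.068 and −0.062 with the length adjustment without and with the block, and spanned 0.12 to 0.28 with a library left out. The 218 calls (205 increased, 13 decreased, 3 in the lists) became 111 (107, 4, 1) with a filter of 1 CPM, 85 (82, 3, 1) with none, 752 (658, 94, 5) with DESeq2 without a prior, 734 (645, 89, 5) with one, 2 (0, 2, 0) with the length adjustment, 89 (84, 5, 3) with the replicate block, where *Cacna1b* passed and *Kctd1* did not, and 2 (1, 1, 0) with both. Leaving out 1 library gave 0 to 401 calls (0 to 367 increased, 0 to 34 decreased, 0 to 4 in the lists): 0 by edgeR without control replicate 1, where 1563 genes had an unadjusted p under 0.05, 8, 9, 12 and 17 without *Fezf2 shRNA* 3, control 4, *Fezf2 shRNA* 1 and *Fezf2 shRNA* 4, 121 without control 3 and 401 without control 2. The cause was not tested. The deviations of same-numbered libraries correlated at 0.31, 0.093, −0.13 and 0.17, and 2 of 4 controls, replicates 1 and 4, correlated best with their own number. These values cannot settle whether same-numbered libraries were paired. Signs turned with the length adjustment, without and with the replicate block, for *Gnao1* (−0.069, −0.067), *Gnai1* (−0.082, −0.083), *Gnb2* (0.040, 0.041), *Rgs4* (0.046, 0.043), *Rgs7bp* (−0.048, −0.041), *App* (−0.17, −0.17) and *Jakmip1* (−0.0075, −0.0021), and with library totals for *Gnai1* (−0.022) and *App* (−0.0082). With a library left out, the lowest and highest values were *Gnai1* −0.026 to 0.061, *Rgs4* −0.14 to 0.014, *App* −0.0090 to 0.053, *Jakmip1* −0.0036 to 0.12, *Kctd3* −0.038 to 0.048. With 4 libraries a group, a change of the size seen in *Kctd8* was within the spread between libraries.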
